A study of Rattus norvegicus with 10 samples.

Results

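The subunits of RNA polymerases I, II and III (Polr genes) and the protein subunits of RNase P and RNase MRP (Rpp and Pop genes) were followed in fetal rat hearts. The genes were chosen by symbol, those that start with Polr1, Polr2, Polr3 or Rpp together with Pop1, Pop4, Pop5 and Pop7, and by a mean across the 10 libraries of 0.1 FPKM or more. FPKM is the number of sequenced fragments of a gene, corrected for gene length and library size. Of the 18025 genes listed, 42 had such a symbol, and all 42 passed the level, the lowest with a mean of 1.71 FPKM (Polr3g) and the highest with 157 FPKM (Polr2l), so that no gene lay just outside the rule. Since mean FPKM chose them, the levels are given as a description.

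RNA polymerase I transcribes the precursor of the large ribosomal RNAs, RNA polymerase II messenger RNAs, and RNA polymerase III transfer RNAs, the 5S ribosomal RNA and other short RNAs. Each enzyme has a core of large catalytic subunits, a stalk and smaller subunits, of which some are its own and some are shared. RNase P removes the leader from precursors of transfer RNA and RNase MRP cleaves the precursor of ribosomal RNA. Both hold a catalytic RNA and largely the same proteins. Growing tissue such as the fetal myocardium depends on the ribosomes and transfer RNAs that these enzymes help to make.

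Hearts of wild-type fetuses at embryonic day 19.5 were compared between 5 libraries of the control group (CON) and 5 libraries of the hyperglycemia group (HG). The fetuses were carried by Sprague-Dawley dams, given citrate buffer alone in CON and streptozotocin, a toxin of the insulin-producing cells of the pancreas, in HG. The sex of the fetuses and the litter of each heart were not given, so that p-values measure the spread between these samples. The drug was given to the dam, so that the fetal heart met a diabetic pregnancy as a whole and not glucose alone. One sentence of the study's methods describes pooled RNA, whereas the 10 libraries held distinct values. The labels give heart tissue, as do the study's methods, results text and a supplementary legend. The legend of another figure speaks of cardiomyocytes isolated from the fetuses. Which of the 2 was sequenced bears on what markers of other cells mean here.

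The libraries held 16672876 to 19109844 reads on genes, and the members had a mean of 101 to 4321 reads per library (median 512). The tissue label was met, since 8 cardiomyocyte markers summed to between 22684 and 27800 FPKM in every library. The sum was lower in HG (22684 to 26442 FPKM) than in CON (26275 to 27800 FPKM; exact permutation test, two-sided, n = 5 per group, p = 0.0159). All 6 markers of cycling cells rose, with sums of 366 to 407 FPKM in HG and 258 to 291 FPKM in CON (exact permutation test, n = 5 per group, p = 0.00794, the smallest p the design allows). Sums of 5 red cell markers were lower in HG (39.6 to 56.6 FPKM against 59.3 to 108 FPKM), and those of 3 smooth muscle markers were higher (758 to 967 FPKM against 573 to 696 FPKM; exact permutation tests, n = 5 per group, p = 0.00794 for each). Of the 4 macrophage markers 2 rose, and their sums were higher in HG with overlapping ranges (29.5 to 39.0 FPKM in HG and 24.8 to 31.0 FPKM in CON; exact permutation test, n = 5 per group, p = 0.0238). All 4 liver markers fell, with sums of 0.852 to 2.40 FPKM in HG against 73.0 FPKM in CON replicate 3 and 3.12 to 7.22 FPKM in the other CON libraries (exact permutation test, n = 5 per group, p = 0.00794). In bulk samples, fewer cells of a type and less RNA per cell cannot be told apart. The part of these shifts in the results on the subunits was not tested.

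Many subunit genes were slightly higher in the hearts of HG fetuses, and a single one was much lower. With limma on log2(FPKM + 0.1) and Benjamini-Hochberg adjustment over all 14542 genes tested, 22 of the 42 genes rose in HG, 1 fell and 19 did not pass the adjusted p of 0.05. The share that rose was 52.4%, against 28.4% of all genes tested and 33.7% of the genes within the same range of mean FPKM. The share of genes that fell was 11.8% over all genes tested. The sign was positive in 36 and negative in 6 of the 42, and the median log2 fold change was 0.16, against 0.093 over all genes and 0.094 over genes in the same range of FPKM. A total of 37 genes had an absolute log2 fold change under 0.35, and 4 lay above it, namely Rpp25 (0.84), Polr3g (0.62), Rpp40 (0.53) and Pop1 (0.41). The single gene that fell was Polr3k (-1.11), a small subunit of RNA polymerase III with a role in RNA cleavage and termination. It was also the only member past the fold threshold of the study's methods (log2 fold change above 1 or under -1), which 1.07% of all genes passed downwards. At an unadjusted p under 0.05, 24 members were higher and 2 lower (Polr3k and Pop5), and with voom on recovered reads 19 were higher and 1 lower. For each group of genes below of which 0 fell, the counts by limma at an unadjusted p under 0.05 and by voom were also 0, except for Pop5 at the unadjusted p.

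How many of the small increases passed depended on the scaling of the libraries. Median-of-ratios factors, one divisor per library, set the median log2 fold change of all genes to 0.0058. Under these factors 10 members were higher and 4 lower, with a median of 0.066. Over all genes, 15.6% were then higher and 17.5% lower. After quantile normalization 13 members were higher, against 18% of all genes, and 3 were lower. Of all member calls, 95.7% were higher as deposited, 71.4% under median-of-ratios scaling and 81.2% under quantile scaling. Over all genes, higher calls also outnumbered lower ones as deposited (28.4% against 11.8%) but not under median-of-ratios scaling (15.6% against 17.5%). The share of all genes called lower after quantile normalization was not counted. The median log2 fold change of the 42 genes was positive in all 3 scalings. In each of them Polr3k was lower and Rpp25, Rpp40, Polr3g and Pop1 were higher.

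**Figure D1:**
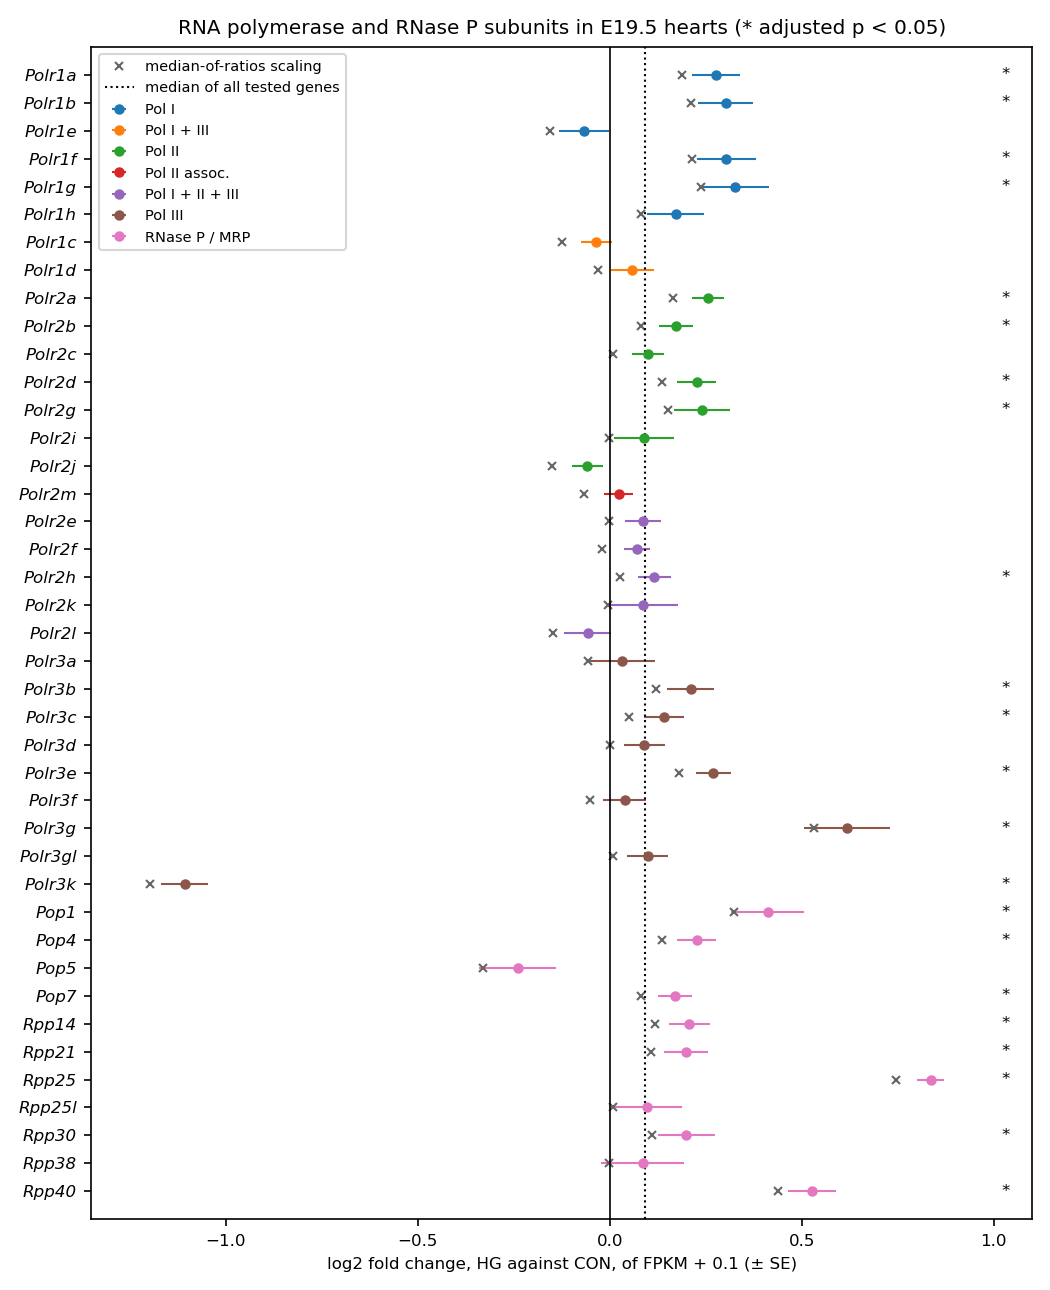
Log2 fold changes of 41 of the genes (x axis, HG against CON, on log2(FPKM + 0.1)), 1 row per gene, coloured by enzyme. Points are limma estimates with SE bars, crosses are the estimates with median-of-ratios factors, the dotted line is the median of all genes tested (0.093), and stars mark the 22 of them with an adjusted p under 0.05. Most points lie between 0 and 0.35, with Polr3k far to the left at -1.11 and Rpp25 far to the right at 0.84.

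The groups did not overlap in 14 genes. In 13 (31% of members) every HG library lay above every CON library, which held for 19.3% of all genes, and in 1 every HG library lay below, which held for 8.12%. Among the 13 were Polr1a, Polr2a, Polr2b, Polr3b, Polr3e, Polr3g, Pop1, Pop4, Pop7, Rpp14, Rpp25 and Rpp40, and the one below was Polr3k. Taken library by library, the median difference of the 42 genes from their CON mean was between 0.115 and 0.19 on the log2 scale in the HG libraries and between -0.0176 and 0.0149 in the CON libraries. Over all genes tested the same median ran from 0.0633 to 0.127 in HG.

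**Figure D2:**
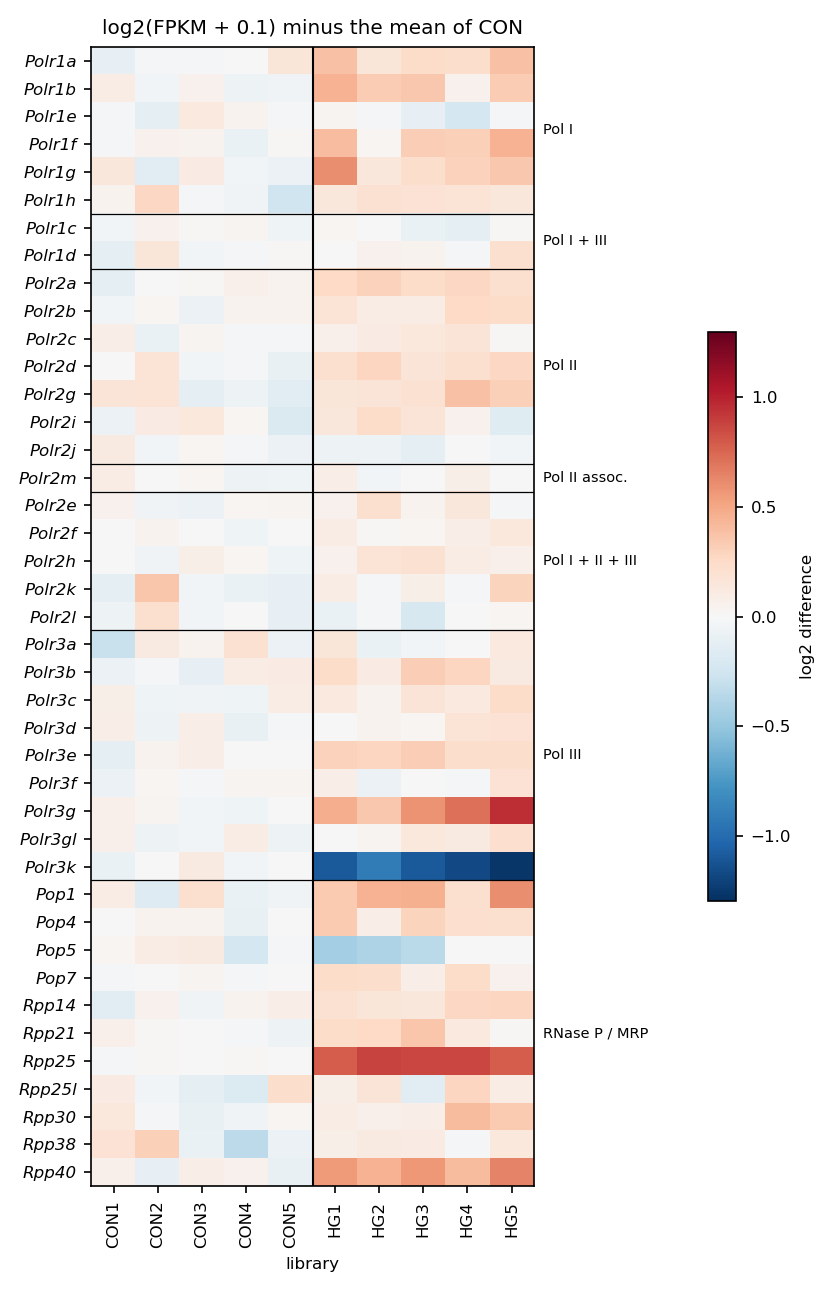
Difference of log2(FPKM + 0.1) from the mean of CON (colour, log2 scale) for 41 of the genes (rows, by enzyme) in the 10 libraries (columns, CON left and HG right of the line). Red is above and blue below the CON mean. Polr3k is the only row that is deep blue across the 5 HG libraries, and Rpp25 the most evenly red.

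RNA polymerase I had 6 subunits of its own, of which 4 rose, 0 fell and 2 did not pass the test. The median log2 fold change was 0.29, the highest median of the enzymes, and with median-of-ratios factors 3 of the 6 were still called higher. The counts of this and the following groups stand beside 28.4% of all genes called higher as deposited and 15.6% with these factors. Levels were low and spread over 3.44-fold, from 6.31 FPKM (Polr1f) to 21.7 FPKM (Polr1h).

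Polr1a (NCBI Gene 83581), the largest catalytic subunit, read 9.01, 9.60, 9.56, 9.72 and 10.9 FPKM in the CON libraries and 12.7, 10.9, 11.5, 11.4 and 12.7 FPKM in the HG libraries, in the order of replicates 1 to 5 as in all such series here. The lowest HG library lay only just above the highest CON library, CON replicate 5, which stood above the other 4 CON libraries. The means were 9.75 ± 0.677 FPKM for CON and 11.8 ± 0.812 FPKM for HG (SD over the 5 libraries of each group; log2 fold change 0.28, SE 0.0617, adjusted p = 0.00371, limma). Polr1b (83582), the other large catalytic subunit, read 6.70, 6.11, 6.51, 6.003 and 6.09 FPKM in the CON libraries and 8.61, 7.92, 8.02, 6.52 and 7.90 FPKM in the HG libraries. In HG, 4 libraries were above all CON libraries and HG replicate 4 was within the CON range (log2 fold change 0.30, SE 0.0722, adjusted p = 0.00565).

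Polr1f, a subunit of the stalk where the initiation factor encoded by Rrn3 docks, rose by a log2 fold change of 0.30 (SE 0.0770, adjusted p = 0.00786). Polr1g and Polr1e encode the partners of one heterodimer of the enzyme, of which 1 was called. Polr1g rose (log2 fold change 0.33, SE 0.0867, adjusted p = 0.00995), whereas Polr1e read 8.30, 7.73, 9.22, 8.75 and 8.33 FPKM in the CON libraries and 8.65, 8.36, 7.85, 7.18 and 8.35 FPKM in the HG libraries, with overlapping groups (log2 fold change -0.067, SE 0.0644, adjusted p = 0.437). The difference between the partners was not tested. The log2 fold change of Polr1h, the subunit with a role in RNA cleavage by this enzyme, was 0.17 (adjusted p = 0.0864). Its CON libraries were spread from 17 to 24.5 FPKM while its HG libraries lay between 22.5 and 23.4 FPKM. Without CON replicate 2 its adjusted p was 0.0075.

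Polr1c and Polr1d, which form the assembly platform shared by RNA polymerases I and III, were not called in either direction. Polr1c read 34.4, 36.7, 35.6, 36.2 and 33.9 FPKM in the CON libraries and 35.9, 35.3, 33.2, 32.5 and 35.7 FPKM in the HG libraries (log2 fold change -0.034, SE 0.0407, adjusted p = 0.534). Polr1d read 46.8, 56.7, 49.6, 50.6 and 51.7 FPKM in the CON libraries and 50.9, 52.9, 52.8, 50.5 and 58.8 FPKM in the HG libraries (log2 fold change 0.059, SE 0.0551, adjusted p = 0.425). The groups overlapped in both genes, and their levels of 34.9 and 52.1 FPKM stood above those of every subunit that RNA polymerase I has for itself. With median-of-ratios factors Polr1c was called lower (-0.12, adjusted p = 0.031) and the sign of Polr1d was negative (-0.032).

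RNA polymerase II had 7 subunits of its own, of which 4 rose, 0 fell and 3 did not pass. Their median log2 fold change was 0.17, and with median-of-ratios factors Polr2a was the only one called higher. That is 14.3% of the 7, near the 15.6% of all genes, and Polr2j was then called lower. Their levels were the most even of the enzymes with more than 2 genes, within 2.33-fold of each other (23.3 to 54.2 FPKM).

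Polr2a (363633), the largest subunit with the repeated C-terminal tail, read 25.8, 28.1, 28.4, 29.6 and 29.2 FPKM in the CON libraries and 33.7, 34.8, 33.1, 33.98 and 32.6 FPKM in the HG libraries. The groups were well apart, since the lowest HG library was at 32.6 FPKM and the highest CON library at 29.6 FPKM (28.2 ± 1.48 FPKM for CON and 33.7 ± 0.808 FPKM for HG, SD, n = 5 each; log2 fold change 0.26, SE 0.0417, adjusted p = 0.000515). Polr2d (364834), a subunit of the stalk, read 21.3, 24.3, 20.9, 20.99 and 19.97 FPKM in the CON libraries and 24.8, 25.97, 24.1, 24.7 and 25.9 FPKM in the HG libraries, where only CON replicate 2 reached into the HG range (log2 fold change 0.23, SE 0.0512, adjusted p = 0.00408).

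Its partner in the stalk, Polr2g, also rose (log2 fold change 0.24, SE 0.0730, adjusted p = 0.0197), although its adjusted p was 0.0502 without CON replicate 3. Polr2b, the other large catalytic subunit, rose by 0.17 (adjusted p = 0.00824). Polr2c and Polr2j, the partners of the assembly heterodimer of this enzyme, had values of 0.10 (adjusted p = 0.0706) and -0.059 (adjusted p = 0.279) on the same scale. Polr2j read 43.9, 39.6, 41.3, 39.8 and 38.5 FPKM in the CON libraries and 38.7, 38.8, 37.4, 40.4 and 39.7 FPKM in the HG libraries, and CON replicate 1 was its highest library. It was called lower with median-of-ratios factors (-0.15, adjusted p = 0.0217). Polr2i, a small subunit with a role in start site choice and fidelity, showed a log2 fold change of 0.089 (adjusted p = 0.395). Polr2m, which encodes a protein bound to RNA polymerase II and not a core subunit, read 122.7, 116, 117, 110 and 111 FPKM in the CON libraries and 122, 113, 115, 121 and 115 FPKM in the HG libraries, with overlapping groups (log2 fold change 0.023, SE 0.0388, adjusted p = 0.67).

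Of the 5 subunits shared by all 3 polymerases 1 rose, 0 fell and 4 did not pass, with a median log2 fold change of 0.086, close to that of all genes. Polr2h read 18.4, 17.9, 19.4, 18.8 and 17.8 FPKM in the CON libraries and 19.1, 20.8, 21.1, 19.7 and 19.3 FPKM in the HG libraries (log2 fold change 0.12, SE 0.0432, adjusted p = 0.0478). Its groups touched, with CON replicate 3 above the lowest HG libraries, and the call was lost when any of CON replicates 1, 2, 4 and 5 or HG replicates 2, 3 and 4 was left out, with median-of-ratios factors and with voom on recovered reads. Polr2f read 122, 126, 122, 117 and 121 FPKM in the CON libraries and 129.7, 122.5, 124, 129 and 134 FPKM in the HG libraries (log2 fold change 0.072, SE 0.0340, adjusted p = 0.114).

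Polr2l read 152, 184, 155, 160 and 148 FPKM in the CON libraries and 149.9, 157, 138, 159.6 and 163 FPKM in the HG libraries (log2 fold change -0.058, SE 0.0615, adjusted p = 0.488). Its highest library was CON replicate 2, which was also the highest of the 10 for Polr2k. Polr2e stood at 0.088 (adjusted p = 0.159) and Polr2k at 0.086 (adjusted p = 0.485). Without CON replicate 2, Polr2k showed a log2 fold change of 0.175 (adjusted p = 0.0422). These shared subunits included the 2 highest levels of the family (Polr2l and Polr2f), and they spread over 8.15-fold (19.2 to 157 FPKM).

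**Figure D3:**
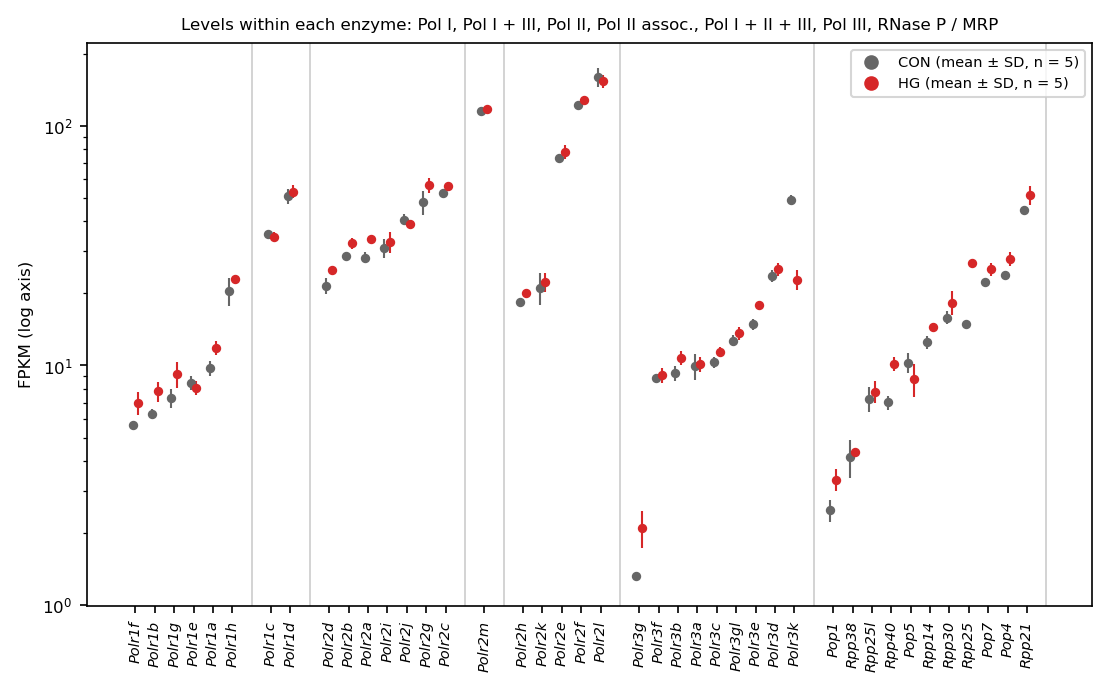
Level of 41 of the genes (y axis, FPKM on a log axis) in CON and HG (points, mean; bars, SD, n = 5 libraries each), grouped by enzyme and ordered by mean level within it. Genes of RNA polymerase III span 21-fold and those of RNA polymerase II 2.33-fold. Polr3k is the highest gene of RNA polymerase III in CON, and in HG it lies below Polr3d.

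RNA polymerase III had 10 subunit genes of its own and moved in both directions. Of these, 5 rose, 1 fell and 4 did not pass, with a median log2 fold change of 0.12. With median-of-ratios factors 3 were higher and 1 lower. The members ranged 21-fold in level, the widest range of the enzymes, from Polr3g at 1.71 FPKM to Polr3k at 35.9 FPKM.

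Polr3k (366277) read 46.1, 49.2, 53.03, 47.9 and 49.2 FPKM in the CON libraries and 22.96, 26.1, 22.9, 21.7 and 20.3 FPKM in the HG libraries. The groups were far apart, with 26.1 FPKM in the highest HG library and 46.1 FPKM in the lowest CON library. The means were 49.1 ± 2.54 FPKM for CON and 22.8 ± 2.14 FPKM for HG (SD, n = 5 each; log2 fold change -1.11, SE 0.0614, adjusted p = 3.57e-07), a change of -53.6% on the linear scale and the 13th smallest p of all genes tested. It rested on 807, 867, 904, 843 and 841 reads in CON and 424, 463, 384, 370 and 327 reads in HG, and it was called under all 22 alternatives. In the RefSeq annotation of GRCr8 the gene overlaps Pcmtd2, which had 19.5 ± 1.12 FPKM for CON and 19.2 ± 1.99 FPKM for HG (SD, n = 5 each; log2 fold change -0.023, adjusted p = 0.817). How the authors' counting treated strand and overlapping genes was not given, so that reads of the overlap may be split between them.

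Polr3e (361640), which with Polr3d forms a dimer related to a general initiation factor of RNA polymerase II, read 13.7, 15.3, 15.7, 14.8 and 14.8 FPKM in the CON libraries and 18.3, 17.98, 18.6, 17.3 and 17.4 FPKM in the HG libraries. Every HG library was above every CON library (log2 fold change 0.27, SE 0.0449, adjusted p = 0.000581). Polr3d showed a log2 fold change of 0.09 (adjusted p = 0.2), so that only 1 of the partners was called. Crcp, a subunit of the enzyme listed under another name, had a log2 fold change of 0.12 without passing the test. Of the catalytic subunits, Polr3b rose by 0.21 (adjusted p = 0.0175), while Polr3a, the largest, read 8.09, 10.7, 10.2, 11.3 and 9.39 FPKM in the CON libraries and 11.1, 9.33, 9.61, 9.81 and 10.8 FPKM in the HG libraries. The Polr3a groups overlapped widely, with CON replicate 1 the lowest and CON replicate 4 the highest library (log2 fold change 0.033, SE 0.0860, adjusted p = 0.792, 95% interval -0.15 to 0.22). Without CON replicate 1 the sign of Polr3a was negative (-0.0386).

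A trimer used in initiation is formed by Polr3c, Polr3f and either Polr3g or Polr3gl. The paralogues are alternative subunits, of which Polr3g is known from embryonic stem cells and Polr3gl from differentiated cells. Polr3g (685465) read 1.39, 1.35, 1.29, 1.26 and 1.31 FPKM in the CON libraries and 1.87, 1.71, 2.03, 2.23 and 2.65 FPKM in the HG libraries, and every HG library was above every CON library. The means were 1.32 ± 0.0516 FPKM for CON and 2.10 ± 0.365 FPKM for HG (SD, n = 5 each; log2 fold change 0.62, SE 0.112, adjusted p = 0.00104). The level is low, with a mean of 109 reads per library, and the CV of 3.91% among CON libraries was below the 10.9% that counting error alone gives. Polr3gl (690254) read 13.3, 12.1, 12.4, 13.6 and 12.1 FPKM in the CON libraries and 12.7, 13.01, 13.9, 13.7 and 14.8 FPKM in the HG libraries, with overlapping groups (log2 fold change 0.10, SE 0.0541, adjusted p = 0.168, 95% interval -0.019 to 0.22).

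As a description, Polr3g made up 9.42 ± 0.583% of the FPKM of the pair in CON (range 8.48 to 10%) and 13.3 ± 1.38% in HG (range 11.6 to 15.2%; SD, n = 5 each). Polr3gl remained the more abundant of the pair in every library. Polr3c rose by 0.14 (adjusted p = 0.0468), a call that was lost when any of 7 libraries was left out, and Polr3f showed a log2 fold change of 0.039 (adjusted p = 0.614).

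The promoters of Polr3k, Polr3g and Polr3gl are shown because they belong to the one gene that fell and to a pair that differed in its calls. They are RefSeq sequences of GRCr8, from 250 bases before to 50 bases after the start of the gene and written 5′ to 3′ on the strand of the gene, at chr3:189360099-189360398 on the plus strand for Polr3k, chr2:13721753-13722052 on the minus strand for Polr3g and chr2:186817920-186818219 on the minus strand for Polr3gl. Capitals mark the letters of a CCAAT box (CCAAT), a GC box (GGGCGG) or an E-box (CACGTG), the last being a site recognised by the Myc family, each searched on both strands (ATTGG is CCAAT read from the other strand).
Polr3k: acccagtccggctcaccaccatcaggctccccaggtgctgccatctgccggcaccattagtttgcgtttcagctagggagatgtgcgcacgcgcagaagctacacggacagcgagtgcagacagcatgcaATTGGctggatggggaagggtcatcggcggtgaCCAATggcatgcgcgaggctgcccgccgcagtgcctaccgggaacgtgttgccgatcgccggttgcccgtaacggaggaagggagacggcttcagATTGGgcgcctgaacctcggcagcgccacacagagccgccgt
Polr3g: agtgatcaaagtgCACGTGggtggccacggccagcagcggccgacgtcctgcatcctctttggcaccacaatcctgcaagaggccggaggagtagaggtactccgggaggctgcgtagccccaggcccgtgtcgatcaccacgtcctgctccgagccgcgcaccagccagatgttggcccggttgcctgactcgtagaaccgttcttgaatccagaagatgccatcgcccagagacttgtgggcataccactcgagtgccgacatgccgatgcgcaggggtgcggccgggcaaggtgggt
Polr3gl: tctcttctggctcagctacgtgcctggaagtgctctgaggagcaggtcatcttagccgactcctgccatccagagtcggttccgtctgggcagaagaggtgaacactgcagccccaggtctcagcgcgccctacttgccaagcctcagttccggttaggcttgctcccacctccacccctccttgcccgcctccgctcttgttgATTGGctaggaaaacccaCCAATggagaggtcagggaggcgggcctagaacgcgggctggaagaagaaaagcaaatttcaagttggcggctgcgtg

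These windows held 3 CCAAT matches in Polr3k, 1 CACGTG match in Polr3g and 2 CCAAT matches in Polr3gl. Polr3g overlaps Mblac2 in the same annotation. Its CACGTG match may therefore lie within sequence of Mblac2, which was not tested. RefSeq gave a promoter for 34 of the 42 genes. CACGTG was present in 8 of the 34 (23.5%), against 6.65% of all 27457 promoters and 9.14% of the promoters of genes tested. The 8 were Polr1g, Polr2f, Polr2h, Polr3a, Polr3c, Polr3e, Polr3g and Rpp38, of which 5 rose, while 17 of the 34 rose. GGGCGG was present in 25 (73.5%, against 34.9% of all promoters and 61.3% of those of tested genes), of which 14 rose. CCAAT was present in 6 (17.6%, against 37.7% and 37.5%), of which 1 rose, the 6 being Polr1c, Polr2d, Polr2i, Polr3f, Polr3gl and Polr3k. A match is a description of letters, and no binding was measured.

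The proteins of RNase P and RNase MRP numbered 11, of which 8 rose, 0 fell and 3 did not pass. Their median log2 fold change was 0.2, and the gene of the family with the largest increase and the smallest adjusted p, Rpp25, was among them. With median-of-ratios factors 3 were higher (Rpp25, Rpp40 and Pop1) and 1 lower (Pop5). Levels spread over 16.5-fold, from 2.91 FPKM (Pop1) to 48.0 FPKM (Rpp21).

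Rpp25 (315705), which binds the catalytic RNA as a dimer with the product of Pop7, read 14.8, 15.1, 14.9, 15.1 and 14.9 FPKM in the CON libraries and 25.9, 27.5, 27.3, 27.4 and 25.8 FPKM in the HG libraries. The CON libraries were almost level and all HG libraries lay far above them. The means were 14.95 ± 0.125 FPKM for CON and 26.8 ± 0.836 FPKM for HG (SD, n = 5 each; log2 fold change 0.84, SE 0.0352, adjusted p = 5.74e-08), which is 1.79-fold and the 3rd smallest p of all genes tested. The libraries held 370, 380, 364, 379 and 364 reads in CON and 684, 698, 654, 668 and 595 reads in HG. The CV among CON libraries, 0.836%, was below the 5.19% that counting error gives for that number of reads.

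Its paralogue Rpp25l (298002) read 7.79, 7.07, 6.66, 6.36 and 8.47 FPKM in the CON libraries and 7.65, 8.15, 6.58, 8.78 and 7.73 FPKM in the HG libraries, with overlapping groups (log2 fold change 0.10, SE 0.0906, adjusted p = 0.421, 95% interval -0.10 to 0.29). Rpp25 made up 67.4 ± 2.69% of the FPKM of the pair in CON (range 63.8 to 70.3%) and 77.5 ± 1.81% in HG (range 75.7 to 80.6%; SD, n = 5 each), a description without a test. Pop7, the partner of Rpp25, rose by 0.17 (adjusted p = 0.00917), and its CON libraries were 22.1 to 22.9 FPKM and its HG libraries 23.3 to 26.4 FPKM. The RefSeq promoter of Rpp25 (GRCr8, chr8:66803012-66803311, plus strand) is shown because this gene rose most, with 1 GC box (GGGCGG) in capitals.
Rpp25: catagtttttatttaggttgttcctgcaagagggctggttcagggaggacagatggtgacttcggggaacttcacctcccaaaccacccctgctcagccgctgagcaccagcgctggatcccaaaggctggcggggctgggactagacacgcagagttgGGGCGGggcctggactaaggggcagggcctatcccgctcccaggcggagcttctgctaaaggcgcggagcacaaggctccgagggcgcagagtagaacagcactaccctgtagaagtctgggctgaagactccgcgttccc

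Genes beside Rpp25 in the RefSeq annotation, looked at after its values were seen, moved in both directions. Scamp5 rose by 0.91 on the log2 scale, from 0.617 ± 0.0721 to 1.25 ± 0.161 FPKM (adjusted p = 0.000149), Fam219b rose (0.21, adjusted p = 0.0112), Cox5a fell (-0.40, adjusted p = 4.56e-05) and Ppcdc did not pass (-0.055, adjusted p = 0.741). None of them overlaps Rpp25.

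**Figure D4:**
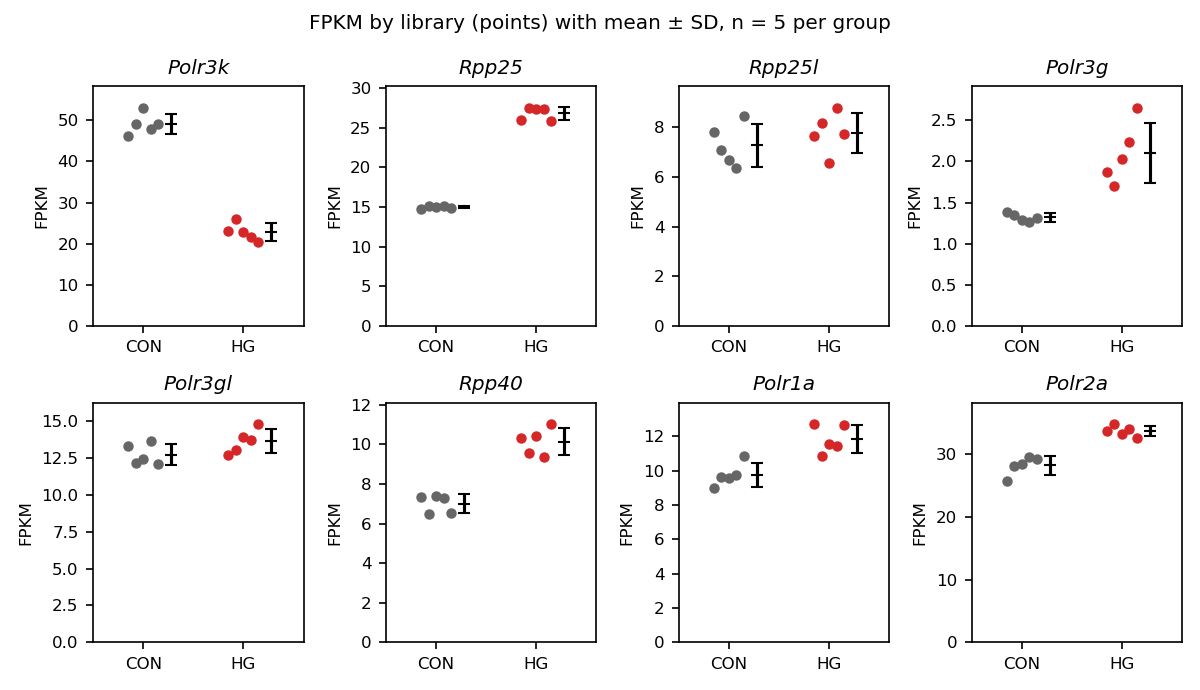
FPKM (y axis, from 0) of 8 genes in each library (points; CON grey, HG red) with the mean and SD (n = 5 libraries each). The groups are apart in Polr3k, where HG is lower, and in Rpp25, Polr3g, Rpp40 and Polr2a, where HG is higher. In Polr1a the lowest HG library lies only just above the highest CON library. The groups overlap in the paralogues Rpp25l and Polr3gl.

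Rpp40 (291071) read 7.35, 6.48, 7.42, 7.28 and 6.52 FPKM in the CON libraries and 10.4, 9.59, 10.4, 9.35 and 11.02 FPKM in the HG libraries. The lowest HG library stood well above the highest CON library (7.01 ± 0.468 FPKM for CON and 10.2 ± 0.674 FPKM for HG, SD, n = 5 each; log2 fold change 0.53, SE 0.0627, adjusted p = 6.00e-05). Pop1, the largest protein of both enzymes, rose by 0.41 from a low level (2.48 ± 0.269 FPKM for CON and 3.34 ± 0.349 FPKM for HG, SD, n = 5 each; SE 0.0951, adjusted p = 0.00464).

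The other subunits that rose did so by little. The log2 fold changes were 0.23 (adjusted p = 0.0035) for Pop4, 0.21 (adjusted p = 0.00882) for Rpp14, 0.20 (adjusted p = 0.0162) for Rpp21, a protein known from RNase P, and 0.20 (adjusted p = 0.0476) for Rpp30. Rpp30 was no longer called when any of CON replicates 2 to 5 or HG replicates 4 and 5 was left out. Rpp38, which binds the catalytic RNA, was at 0.086 (adjusted p = 0.559), and its CON libraries were spread from 3.22 to 5.11 FPKM. Pop5 was the only one with a negative sign and read 10.5, 10.97, 11.2, 8.71 and 10.2 FPKM in the CON libraries and 7.53, 7.76, 7.996, 10.2 and 10.2 FPKM in the HG libraries. In HG, 3 libraries lay below every CON library and 2 lay within the CON range (log2 fold change -0.24, SE 0.101, adjusted p = 0.0765). It was called lower with median-of-ratios factors (-0.33, adjusted p = 0.024) and when CON replicate 4, HG replicate 4 or HG replicate 5 was left out.

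Some factors that act with the 3 polymerases, in initiation or at other steps, rose. The counts are to be read against the 28.4% of all genes that rose and the median log2 fold change of 0.093 over all genes. With median-of-ratios factors, 15.6% of all genes were higher and 17.5% lower. Of 9 factors of RNA polymerase I, 5 rose and 0 fell (median log2 fold change 0.15, with median-of-ratios factors 2 higher and 0 lower). Ubtf, which binds the ribosomal gene promoter, showed a log2 fold change of 0.12 (adjusted p = 0.0171), Rrn3 of 0.24 (adjusted p = 0.00169) and Taf1d of 0.31 (adjusted p = 0.0079). With median-of-ratios factors Ubtf was not called (0.026, adjusted p = 0.59), whereas Rrn3 (0.15, adjusted p = 0.0215) and Taf1d (0.21, adjusted p = 0.0418) were. Without HG replicate 1 or without HG replicate 5, 3 of the 9 were called higher.

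Of 18 factors of RNA polymerase III, 10 rose and 0 fell (median 0.19, with median-of-ratios factors 4 higher and 0 lower). Gtf3c1 and Gtf3c3, subunits of the factor that binds transfer RNA genes, rose by 0.31 (adjusted p = 0.000546) and 0.32 (adjusted p = 0.00143). The 10 include Maf1, the repressor of RNA polymerase III, which rose by 0.12 (adjusted p = 0.0385), with overlapping groups. With median-of-ratios factors Maf1 was not called (0.029, adjusted p = 0.652). Brf1, a subunit of the initiation factor that Maf1 acts on, showed a log2 fold change of 0.029 (adjusted p = 0.767). Of 37 general factors of RNA polymerase II, which include factors of elongation, 20 rose and 0 fell (median 0.18, with median-of-ratios factors 6 higher and 0 lower). As a share, 6 of 37 lies near the 15.6% of all genes higher under those factors. Cdk9, the kinase of elongation (0.39, adjusted p = 0.000156), and Taf7 (0.29, adjusted p = 0.000637) had the smallest adjusted p.

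Among genes that act on the transcripts, and those of mitochondrial transcription, the share that rose was uneven. It was 70.8% in ribosomal RNA processing and 22.2% in each of the other lists. These shares are as deposited, and the latter lie near the 28.4% over all genes. The counts with median-of-ratios factors below stand beside 15.6% of all genes higher and 17.5% lower. Of 24 genes of ribosomal RNA processing 17 rose and 0 fell (median 0.22, with median-of-ratios factors 9 higher and 1 lower), led by the nucleolar proteins Fbl (0.35, adjusted p = 6.80e-06) and Ncl (0.40, adjusted p = 2.66e-05). Of 9 genes of transfer RNA end and intron processing 2 rose and 0 fell (median 0.059, with median-of-ratios factors 0 higher and 0 lower and a median of -0.032), Tsen34, a subunit of the splicing endonuclease (0.14, adjusted p = 0.00508), and Rtcb, the ligase (0.12, adjusted p = 0.027). Of 9 genes of mitochondrial transcription and mitochondrial RNase P, a separate enzyme made of protein alone, 2 rose and 2 fell (median 0.045, and -0.045 with median-of-ratios factors). Within that enzyme Trmt10c (0.35, adjusted p = 0.00024) and Prorp (0.21, adjusted p = 0.0167) rose and Hsd17b10 fell (-0.25, adjusted p = 0.000159), and the transcription factor Tfb2m fell (-0.16, adjusted p = 0.0401). With median-of-ratios factors 1 of these 9 was higher and 4 were lower.

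Of 9 genes of the Myc family, 4 rose and 1 fell (median 0.031, with median-of-ratios factors 2 higher and 1 lower and a median of -0.059). The list mixes transcription factors known to drive genes of ribosome formation with their partner Max and with repressors of the family. Myc itself showed a log2 fold change of -0.040 (adjusted p = 0.63). Mycn rose from 12.9 ± 0.876 to 20.6 ± 2.55 FPKM (SD, n = 5 each), by 0.67 on the log2 scale (adjusted p = 6.60e-05), and Mycl rose at a level near the filter (0.78, adjusted p = 0.0137). As deposited, the called repressors of the family moved both ways. Mxd4 fell (-0.18, adjusted p = 0.0235), while Mxd3 (0.34, adjusted p = 0.0138) and Mnt (0.22, adjusted p = 0.026) rose. With median-of-ratios factors Mxd4 was still called lower (-0.27, adjusted p = 0.00147). Mxd3 (0.25, adjusted p = 0.0686) and Mnt (0.13, adjusted p = 0.181) were then not called. In the same libraries the 6 cycling genes rose and 5 of the 8 cardiomyocyte markers fell, while Nppa of the same list rose (0.72, adjusted p = 0.000797), and their part in these lists was not tested.

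Gene models bear on some of these values. In RefSeq's GRCr8, 11 of the 42 genes overlap another gene and 9 overlap one that the table lists. Beside Polr3k these were Polr1g with Ercc1, Polr1h with Znrd1as1, Polr2b with Igfbp7, Polr2g with Zbtb3, Polr2j with Lrwd1, Polr3c with Rnf115, Polr3g with Mblac2 and Rpp21 with Trim39. Of these partners 2 were called, Igfbp7 lower (-0.32, adjusted p = 0.000524), where Polr2b rose, and Lrwd1 higher (0.48, adjusted p = 4.25e-05), where Polr2j was not called. Without CON replicate 3, the library with the liver markers, 19 of the 42 genes were higher and 1 lower.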

How the data were processed

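The authors deposited FPKM per gene for 5 CON and 5 HG libraries, made by TruSeq Stranded mRNA preparation. The submitters' processing notes name fastp, HISAT2, HTSeq, R 3.2.0 and the genome build mRatBN7.2, with no role or order. All 10 columns of samples were used (0 unused). GO and KEGG annotation was not used. FPKM depends on what else a library holds, so 2 other scalings were run.

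The tables were handled in Python 3.11.15 (pandas 2.3.3, numpy 2.4.6, scipy 1.17.1) and the plots made with matplotlib 3.10.9. Whole reads were recovered from the steps between FPKM values (100% of 18025 genes within 0.02 of a whole read) and gave depth and counting error, which covers reads and not molecules. For the 14542 genes whose mean reached 0.1 FPKM, log2(FPKM + 0.1) was fitted by limma 3.58.1 in R 4.3.3 (trend, no covariate), which understates changes at low FPKM. DESeq, named in the study's methods, takes counts and was not used. A call was an adjusted p under 0.05 over all genes. The limma fit was tested on counts simulated from the CON means. The simulation held no shift of scale between the groups, so it does not bear on the choice of scaling. For single sums the test was an exact permutation test, two-sided.

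In 22 alternatives, 1 choice was changed at a time, except in voom with median-of-ratios factors, which changed 2. The pseudocount was 1 or 0.01, the filter was dropped or set at 1 FPKM, libraries were scaled by median-of-ratios factors or by quantiles, hemoglobin genes were removed, limma was run without its trend, with weights per array or with the replicate block, or the test was voom on recovered reads, the same with median-of-ratios factors (chosen after seeing the data) or each library was left out in turn. The fold threshold was run beside them.

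The members, gene lists and markers were chosen with earlier results of these data known. All members are counted and named, except for 1 that is not reported here by name. Library values are given for Polr1a, Polr2a, Polr3a, the 2 paralogue pairs and, in each role, the 2 genes with the smallest adjusted p in each direction. Lists of other genes name the 2 called genes with the smallest adjusted p in each direction and, whatever their values, Myc, Mycn, Maf1, Brf1, Ubtf and Rrn3. For the Myc family every called gene is named. Taf4 was not found by symbol. Twistnb, Cd3eap and Znrd1 are older symbols of Polr1f, Polr1g and Polr1h. Of the remaining markers, those of endothelial cells (4 genes, 0 called) and fibroblasts (4 genes, 2 higher and 1 lower) gave sums that did not pass (exact permutation p = 0.587 and p = 0.0952), Lck was the 1 thymus gene above the filter, and Sftpc of lung was below it. RefSeq sequences and gene neighbours are of GRCr8, not of the build of the files.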

Additional observations from a re-analysis of the deposited data

Results flagged for a closer look

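Among the 5 CON libraries, Polr2k was at 26.8 FPKM in replicate 2 and between 19.1 and 20.3 FPKM in the others. This sample was set apart because its gap to the nearest was 0.847 of the whole range of the group, above Dixon's 95% critical value for 5 samples. It was 1 of 84 groups of 5 libraries looked at, and chance gives about 1 in 20, or 4.2 here.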

How the results depend on the processing

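Of the 23 called members, 11 were called under all 22 alternatives (among them Polr1a, Polr1b, Polr1f, Polr2a, Polr3e, Polr3g, Pop1, Rpp25 and Rpp40 higher, Polr3k lower). Over all alternatives and members, 818 values kept direction and call, 69 lost the call, 14 gained one and 23 changed sign. Members called higher numbered 10 with median-of-ratios factors, 13 after quantile normalization, 10 with voom and median-of-ratios factors, and 0 with the fold threshold, and those called lower 4, 3, 2 and 1, and 2 with array weights. The median log2 fold change was 0.0657, 0.0898 and 0.0657 under these 3 scalings. Higher calls numbered 1 for RNA polymerase II (both median-of-ratios settings), 3 for RNA polymerase III (all 3 scalings) and 3, 4 and 3 for RNase P and MRP. The single call among subunits shared by 3 polymerases became 0 under these scalings, without hemoglobin genes, without the trend, with the replicate block and with voom.

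With median-of-ratios factors the log2 fold changes of Polr1d (-0.0317), Polr2e (-0.00286), Polr2f (-0.0192), Polr2i (-0.00157), Polr2k (-0.00457), Polr2m (-0.0677), Polr3a (-0.0573), Polr3d (-0.000161), Polr3f (-0.051) and Rpp38 (-0.00294) changed sign. After quantile normalization those of Polr3a (-0.0508), Polr3f (-0.0508) and Rpp38 (-0.0261) did. With voom and median-of-ratios factors those of Polr1d (-0.0328), Polr2e (-0.00254), Polr2f (-0.0193), Polr2k (-0.00684), Polr2m (-0.0677), Polr3a (-0.0577), Polr3d (-0.000892), Polr3f (-0.052) and Rpp38 (-0.00326) did, and without CON replicate 1 that of Polr3a (-0.0386). None of these was called as deposited. These scalings set the centre of all genes lower by construction, and no other cause was tested.

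When 1 library was left out, 19 to 22 members were higher and 1 to 2 lower (2 without CON replicate 4, HG replicate 4 or HG replicate 5), the median was 0.144 to 0.174, the log2 fold change of Polr3a was -0.0386 to 0.0811, and the shared subunits had 0 to 1 higher (0 without CON replicates 1, 4 or 5 or HG replicates 2, 3 or 4). Same-numbered libraries had correlated deviations of -0.126 to 0.108, and no label ties them, so the numbers do not pair the samples. With the replicate block 19 members were higher and 1 lower. Depth limits Rpp38 and Polr3g most, with means of 101 and 109 reads per library.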
